A study of Mus musculus with 8 samples.

Results

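The genes described here encode the nuclear subunits of complexes I to IV of the mitochondrial respiratory chain and the testis form of cytochrome c. The list held 49 genes, namely 28 of complex I, 4 of complex II, 6 of complex III, 10 of complex IV, and Cyct. Genes were found by symbol in the array's annotation, and 47 of the 49 had a probe set annotated to them alone, of 18193 genes with such a probe set. Where a gene had several, the one with the highest mean over the 8 arrays was used. Ndufa11 and Ndufs6 were each covered only by probe sets annotated to 2 genes, and no value is given for them. The 47 measured members comprised 26 genes of complex I, 4 of complex II, 6 of complex III, 10 of complex IV and Cyct, and all 47 lie on autosomes.

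Expression was measured in male germ cells of FVB mice aged 4 to 5 weeks that lacked Hr6b (Hr6b-/-) or carried both wild type alleles (Hr6b+/+). HR6B, encoded by Ube2b, is a ubiquitin-conjugating enzyme, and males without it are infertile. The knockout is constitutive, so the other cells of the testis lacked Hr6b as well. The groups were Hr6b knockout spermatids, wild type spermatids, Hr6b knockout spermatocytes and wild type spermatocytes, with 2 arrays each. Late spermatocytes are cells in meiotic prophase and round spermatids are the haploid cells that arise from them; both were purified by sedimentation and density centrifugation, so each preparation holds some other cells. The numbers of mice behind an array are not given, so p-values measure the spread between these preparations, which may be partly technical.

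The respiratory chain passes electrons from NADH and succinate to oxygen. Complex I oxidises NADH, complex II oxidises succinate and is also an enzyme of the citric acid cycle, complex III hands the electrons to cytochrome c, and complex IV reduces oxygen, while complexes I, III and IV pump the protons that drive ATP synthesis. Male germ cells replace some somatic subunits by testis isoforms during meiosis, among them cytochrome c (Cyct) and the complex IV subunits COX6B2, COX7B2 and COX8C.

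Signal stands for the deposited log2 value returned to the linear scale, and a log2 difference is given with its standard error. A gene is called higher or lower at an adjusted p under 0.05 from limma, with the adjustment over all 45037 probe sets tested. The 2 arrays of a group had a Pearson r of 0.995 to 0.997 over all probe sets, and the largest gap between 2 replicates of a member was 0.36 on the log2 scale. The median log2 value of probe sets with a mean signal of 100 or more was 8.40 to 8.65 on the spermatid arrays and 8.90 to 8.97 on the spermatocyte arrays, so that values of well expressed genes were lower on spermatid arrays in general. The arrays compare shares of RNA between preparations, and fewer cells of a type cannot be told apart from less RNA per cell. The most intense Ube2b probe set had a signal of 1006 ± 78.1 in knockout spermatids and 4606 ± 8.47 in wild type spermatids (SD, n = 2 each). It had 828 ± 6.72 in knockout spermatocytes and 3102 ± 349 in wild type spermatocytes (SD, n = 2 each). Summed signals of 16 round spermatid markers were 110010 to 112022 in knockout and 97382 to 103226 in wild type spermatids, against 6604 to 7513 in knockout and 4424 to 5893 in wild type spermatocytes. Summed signals of 14 spermatocyte markers were 57322 to 60142 in knockout and 63839 to 65601 in wild type spermatids. In spermatocytes they were 73246 to 77694 in knockout and 73455 to 73977 in wild type. Of these 14, 8 were called lower and 4 higher in spermatids in the knockout, and 7 lower and 4 higher in wild type. The sum in spermatids thus also holds genes that were higher there, and it does not measure spermatocytes left in those preparations.

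Respiratory chain transcripts were abundant in all 4 groups. The median signal over the 47 members was 2547 in knockout spermatids, 2629 in wild type spermatids, 5498 in knockout spermatocytes and 5480 in wild type spermatocytes. In 46 of the 47 genes the mean signal over the 8 arrays reached 100, and in 42 it reached 1000. Ndufb4, an accessory subunit of complex I, was the exception, with signals of 10.6 to 18.0 on the 8 arrays, and its values are near background. The probe sets with the highest mean in their complex were those of Ndufv2, Sdhb, Uqcrb and Cox7a2, an order that also holds the efficiency of each probe set and is no order of transcript amounts. In the plot of all members by array, most genes lie lower in spermatids than in spermatocytes of either genotype.

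**Figure D1:**
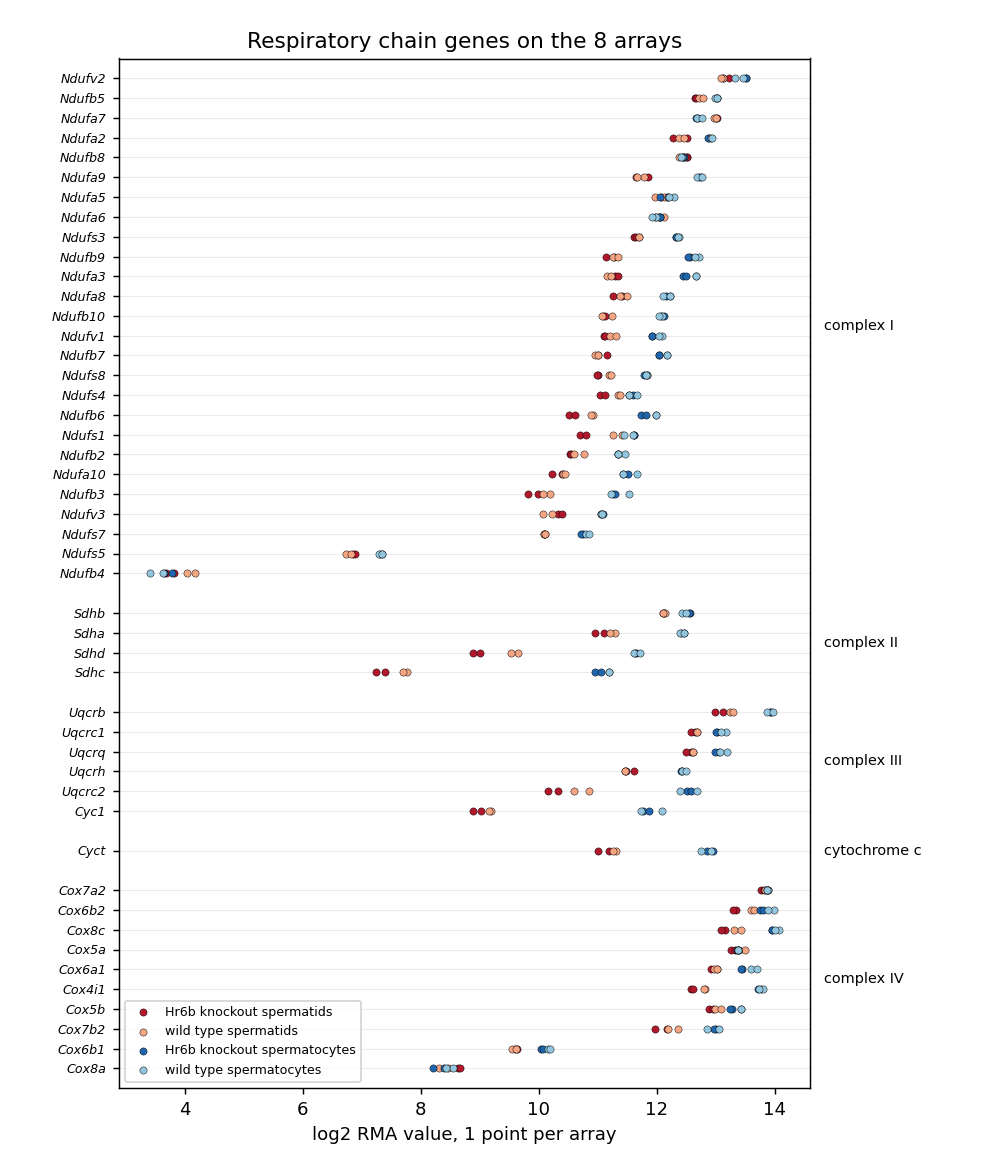
Level of each of the 47 members on the 8 arrays (x axis, log2 RMA value; 1 point per array), grouped by complex and ordered by mean level. For Sdhc, Sdhd, Cyc1 and Uqcrc2 the spermatid arrays lie more than 1 log2 unit to the left of the spermatocyte arrays, whereas the 8 arrays nearly coincide for Cox7a2 and Ndufb8.

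The first question was how expression of the chain differs between the haploid stage and meiotic prophase. In the knockout, 39 of the 47 members (83.0%) were lower in spermatids than in spermatocytes and 2 were higher, against 28.7% lower and 34.2% higher among all probe sets. In wild type, 35 of the 47 (74.5%) were lower and 1, Ndufb4 near background, was higher, against 27.3% lower and 26.0% higher among all probe sets. All 35 genes that were lower in wild type spermatids were lower in knockout spermatids as well. Genes with a high signal are a closer comparison: among the 42 members with a mean signal of at least 1000, 36 (85.7%) were lower in knockout spermatids and 32 (76.2%) in wild type spermatids, against 52.5% and 43.9% of all probe sets at that signal. The 47 members had a median log2 difference of -0.80 for the knockout and -0.67 for wild type, against 0.14 and 0.10 over all probe sets and -0.37 and -0.17 over those with a signal of at least 1000.

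The counts depend on how arrays are brought to 1 scale. With equal medians of the expressed probe sets, the median difference of all probe sets moved by 0.53 in the knockout and 0.30 in wild type. In the knockout, 23 members were then lower and 8 higher than in spermatocytes, against 20.4% lower and 67.5% higher among all probe sets at that scaling. In wild type 28 were then lower and 6 higher, against 21.9% lower and 55.6% higher. After cyclic loess, 23 were lower and 5 higher in the knockout, against 27.0% lower and 26.7% higher among all probe sets, and in wild type 30 were lower and 4 higher, against 25.9% lower and 24.4% higher. The medians of complexes I, II and III stayed below 0 in both genotypes under every scaling tried, whereas that of complex IV in the knockout was -0.44 as deposited and 0.08 with equal medians. Markers of other cells differed between the stages as well, in both directions. The summed signal of 14 Sertoli cell markers was 1687 to 1690 in knockout and 985 to 1074 in wild type spermatids, against 7251 to 9420 in knockout and 7483 to 9646 in wild type spermatocytes, with 9 of 14 called lower and 3 higher in the knockout, and 10 lower and 0 higher in wild type. That of 11 spermatogonial markers was 1042 to 1050 in knockout and 886 to 889 in wild type spermatids, against 7752 to 8035 in knockout and 8505 to 9311 in wild type spermatocytes. That sum was carried by few genes, among them Id4 (-4.36 in the knockout and -4.49 in wild type), since 7 of the 11 were called higher and 2 lower in the knockout, and 3 higher and 3 lower in wild type. The sum of 13 Leydig, peritubular and macrophage markers was higher in spermatids, at 1152 to 1217 in knockout and 1021 to 1026 in wild type spermatids, against 738 to 819 in knockout and 797 to 851 in wild type spermatocytes. Of these, 9 were called higher and 1 lower in the knockout, and 5 higher and 1 lower in wild type. The part of these cells in the stage differences was not tested. Across the 47 members the stage differences of the genotypes, which share no array, had a Pearson r of 0.960 and a Spearman rho of 0.929, given as a description since genes of 1 complex are not independent.

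**Figure D2:**
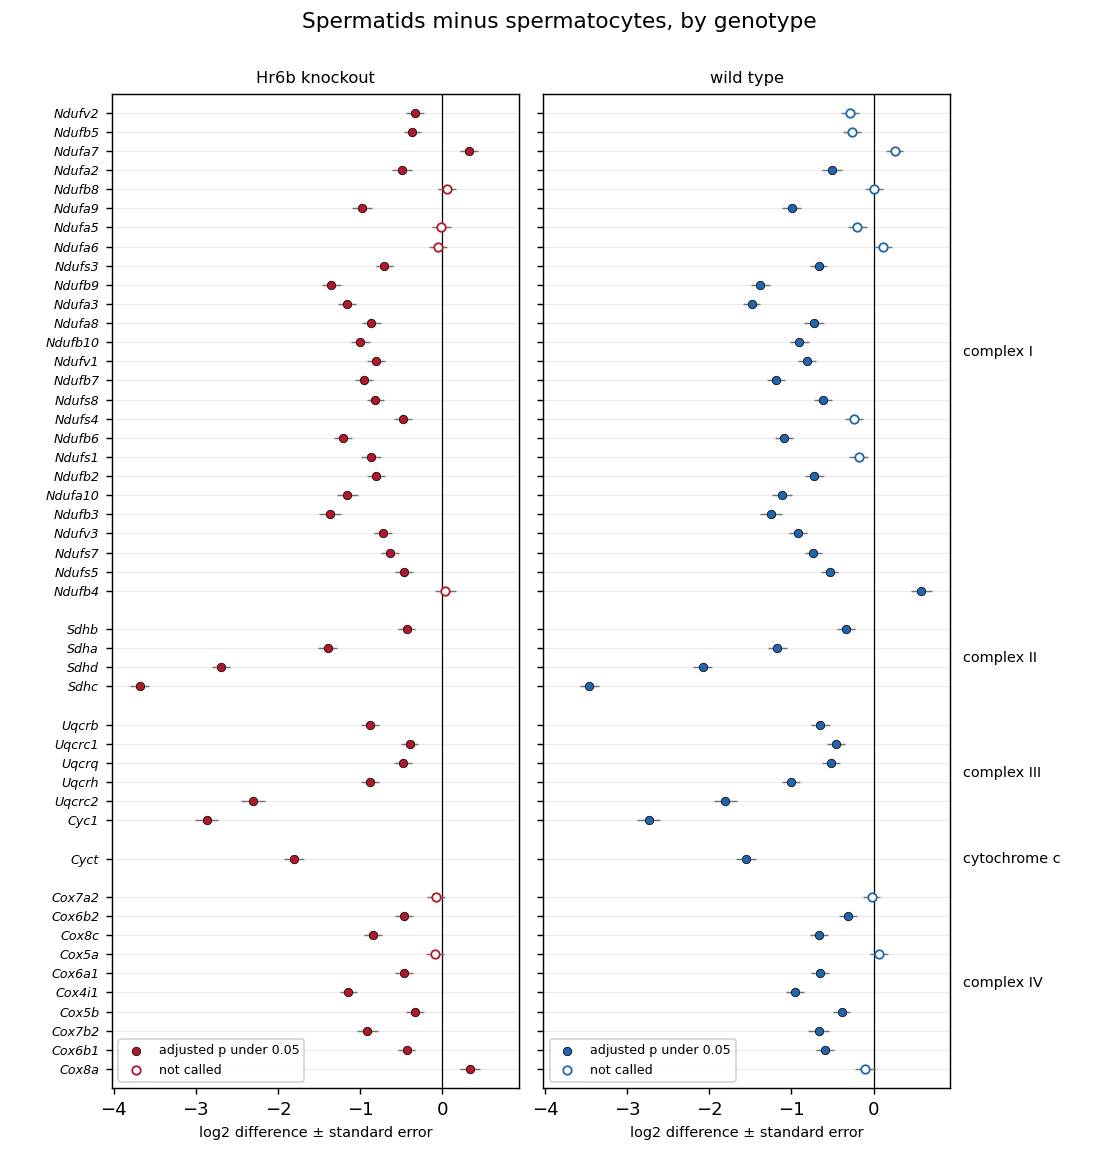
Log2 difference of spermatids minus spermatocytes ± standard error (x axis) for each member in the Hr6b knockout (left) and in wild type (right), with 2 arrays in each group. Filled points have an adjusted p under 0.05; Sdhc reaches -3.68 in the knockout and -3.46 in wild type. On the negative side, 39 knockout and 35 wild type points are filled.

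Promoter sequences of the RefSeq annotation (build GRCm38.p6, 250 bases before to 50 bases after the start) were found for 37 of the 47 members, 2 of which had 2 entries each. They are shown for 6 genes. Sdhd (chr9:50603800-50604099) and Sdha (chr13:74350191-74350490) belong to complex II, and Cyct (chr2:76360404-76360703) and Cox6b2 (chr7:4753045-4753344) are testis isoforms. Cox6b1 (chr7:30626065-30626364) is the somatic counterpart of Cox6b2, and Cox7a2 (chr9:79759804-79760103) is another gene of complex IV. All but Cox7a2, which was not called between stages, were called lower in spermatids of both genotypes as deposited. All 6 genes lie on the minus strand and are printed 5′ to 3′ along the gene. Capitals mark matches on either strand to the NRF1 motif (GCGC, any 2 bases, then GCGC), the core of the site bound by NRF1, a regulator of respiratory genes, to CCGGAA, the core of sites bound by ETS factors such as GABPA, and to TGACGTCA, the cyclic AMP response element.
Sdhd: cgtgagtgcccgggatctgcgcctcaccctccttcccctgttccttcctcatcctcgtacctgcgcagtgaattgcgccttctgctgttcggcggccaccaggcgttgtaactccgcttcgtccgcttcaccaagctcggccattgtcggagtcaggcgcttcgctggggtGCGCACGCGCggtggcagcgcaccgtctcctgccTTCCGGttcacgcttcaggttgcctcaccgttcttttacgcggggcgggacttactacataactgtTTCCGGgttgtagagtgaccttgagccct
Sdha: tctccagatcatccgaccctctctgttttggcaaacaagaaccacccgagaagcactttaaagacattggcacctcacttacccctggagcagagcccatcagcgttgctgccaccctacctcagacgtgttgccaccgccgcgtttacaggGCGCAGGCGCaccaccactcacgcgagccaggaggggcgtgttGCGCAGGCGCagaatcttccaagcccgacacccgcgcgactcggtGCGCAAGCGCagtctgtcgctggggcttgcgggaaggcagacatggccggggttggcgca
Cyct: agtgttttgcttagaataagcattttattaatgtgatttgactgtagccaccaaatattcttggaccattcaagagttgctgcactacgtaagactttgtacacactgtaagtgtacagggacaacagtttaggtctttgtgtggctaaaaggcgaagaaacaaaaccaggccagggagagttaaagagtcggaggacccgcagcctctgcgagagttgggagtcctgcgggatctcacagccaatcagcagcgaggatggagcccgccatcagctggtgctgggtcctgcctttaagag
Cox6b2: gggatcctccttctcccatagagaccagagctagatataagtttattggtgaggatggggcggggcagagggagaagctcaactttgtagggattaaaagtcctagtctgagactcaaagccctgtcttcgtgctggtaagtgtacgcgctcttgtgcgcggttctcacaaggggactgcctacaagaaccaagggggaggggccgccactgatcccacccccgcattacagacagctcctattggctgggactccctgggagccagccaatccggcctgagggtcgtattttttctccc
Cox6b1: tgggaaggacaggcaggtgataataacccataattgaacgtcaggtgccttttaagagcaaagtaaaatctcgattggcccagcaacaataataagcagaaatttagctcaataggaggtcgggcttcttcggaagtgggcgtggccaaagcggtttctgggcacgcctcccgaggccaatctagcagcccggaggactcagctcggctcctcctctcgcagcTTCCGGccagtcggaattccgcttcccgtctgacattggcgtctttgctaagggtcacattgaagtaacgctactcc
Cox7a2: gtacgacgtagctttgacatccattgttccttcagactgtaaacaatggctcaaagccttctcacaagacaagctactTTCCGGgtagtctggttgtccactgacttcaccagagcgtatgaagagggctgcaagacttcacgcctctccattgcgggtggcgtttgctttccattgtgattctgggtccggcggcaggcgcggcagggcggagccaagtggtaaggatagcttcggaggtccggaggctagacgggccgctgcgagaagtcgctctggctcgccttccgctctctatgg
The Sdhd promoter holds 1 match to the NRF1 motif and 2 to CCGGAA, that of Sdha 3 to the NRF1 motif, and those of Cox6b1 and Cox7a2 1 each to CCGGAA. No match overlaps another, and neither testis isoform shown, Cyct or Cox6b2, holds any of the 3 motifs in this window. Over the 39 promoters of members, the NRF1 motif was found in 11 (28.2%), against 6.23% of all 32851 promoters of this length. CCGGAA was found in 16 (41.0%), against 14.9%, and TGACGTCA in 2 (5.13%), against 1.79%. Among members with a promoter, CCGGAA was present in 14 of the 26 genes that were lower in spermatids in both genotypes and in 2 of the 11 others, and the NRF1 motif in 6 and 4 of them. These matches describe the letters only, and no test was made of them.

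Complex II had the widest range. SDHA carries the flavin and SDHB the iron-sulfur clusters, whereas SDHC and SDHD anchor the enzyme in the inner membrane and bind its haem. Sdhc had signals of 169 and 151 in knockout spermatids, against 1985 and 2118 in knockout spermatocytes. Its signals were 217 and 207 in wild type spermatids, against 2339 and 2325 in wild type spermatocytes. Every spermatid array was far below every spermatocyte array, by 12.8-fold in the knockout and 11.0-fold in wild type (log2 differences -3.68 ± 0.11 and -3.46 ± 0.11, adjusted p = 3.82e-09 and 3.37e-09). A second Sdhc probe set of lower spermatocyte signal gave a smaller difference in the same direction, -0.72 in the knockout and -0.89 in wild type. Sdhd had signals of 469.7 and 515 in knockout spermatids, against 3198 and 3163 in knockout spermatocytes. It had 798 and 736 in wild type spermatids, against 3139 and 3347 in wild type spermatocytes. The differences were -2.69 ± 0.11 and -2.08 ± 0.11 on the log2 scale, and a second Sdhd probe set gave -2.28 and -1.90. Sdha was 2.63-fold lower in knockout and 2.25-fold lower in wild type spermatids. A second Sdha probe set gave larger log2 differences in the same direction, -2.45 in the knockout and -1.89 in wild type. Sdhb differed least, with log2 differences of -0.43 ± 0.11 and -0.33 ± 0.11. After cyclic loess or with equal medians its direction turned in the knockout (0.02 and 0.10) and its wild type call was lost, as it was without either wild type spermatid array or without replicate 2 of the wild type spermatocytes.

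All 6 genes of complex III were lower in spermatids of both genotypes, with a median of -0.88 for the knockout and -0.83 for wild type, although Uqcrc1 and Uqcrq turned direction in the knockout with equal medians (0.13 and 0.05). Cyc1 encodes cytochrome c1, the haem protein that passes electrons on to cytochrome c. Cyc1 had signals of 517 and 475 in knockout spermatids, against 3491 and 3753 in knockout spermatocytes. It had 584 and 573 in wild type spermatids, against 3406 and 4375 in wild type spermatocytes. The arrays of the stages did not overlap, and the gene was 7.30-fold lower in knockout and 6.68-fold lower in wild type spermatids. Uqcrc2, which encodes a core protein of the complex, had signals of 1144 and 1289 in knockout spermatids, against 5849 and 6133 in knockout spermatocytes. It had 1856 and 1550.4 in wild type spermatids, against 5390.1 and 6537 in wild type spermatocytes. These are log2 differences of -2.30 ± 0.14 and -1.81 ± 0.14, and a second probe set gave -2.35 and -1.78. Its partner core protein gene Uqcrc1 differed by -0.39 ± 0.11 and -0.46 ± 0.11. The small subunit genes Uqcrb, Uqcrh and Uqcrq lay between -0.88 and -0.48 in the knockout and between -1.01 and -0.52 in wild type. For Uqcrq, 2 further probe sets with mean signals below 100 were called higher in knockout spermatids (0.69 and 0.37), opposite to the intense one.

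Of the 26 genes of complex I, 21 were lower and 1 higher in knockout spermatids, and 17 were lower and 1 higher in wild type spermatids; the medians were -0.76 and -0.70. With equal medians of the arrays, 12 were lower and 5 higher in the knockout, and 15 lower and 4 higher in wild type. The differences were narrower than in complexes II and III, between -1.37 (Ndufb3) and 0.33 (Ndufa7) in the knockout and between -1.48 (Ndufa3) and 0.58 (Ndufb4) in wild type. Those that differed most were accessory subunit genes. Ndufa3 had signals of 2508 and 2586 in knockout spermatids, against 5582 and 5784 in knockout spermatocytes. It had 2274 and 2377 in wild type spermatids, against 6491 and 6519 in wild type spermatocytes. Ndufb9 differed by -1.35 ± 0.11 in the knockout and -1.38 ± 0.11 for wild type, although a dim further probe set of it was called higher in the knockout (0.52). Ndufb3 was 2.58-fold and 2.38-fold lower, Ndufb6 2.32-fold and 2.13-fold lower, and Ndufa10 2.22-fold and 2.17-fold lower. Ndufb7 differed by -0.95 ± 0.11 in the knockout and -1.19 ± 0.11 in wild type. Ndufa9 and Ndufb10 were also lower in spermatids of both genotypes, and Ndufa8, Ndufb2 and Ndufv3 lay between -0.86 and -0.72 in the knockout and between -0.92 and -0.72 in wild type. Ndufa2, Ndufb5, Ndufs4, Ndufs5 and Ndufv2 lay between -0.49 and -0.33 in the knockout, where all 5 were called, and between -0.54 and -0.23 in wild type, where 2 were. These 5 turned direction in the knockout with equal medians. In the knockout, the Ndufb5 call was lost without either spermatocyte array, and the Ndufv2 call without either spermatocyte array or without replicate 1 of the spermatids. The core subunit genes of the catalytic arm varied too. Ndufv1, which encodes the NADH-binding subunit, differed by -0.80 ± 0.11 in the knockout and -0.81 ± 0.11 in wild type. Ndufs3, Ndufs7 and Ndufs8 lay between -0.81 and -0.63 in the knockout and between -0.73 and -0.61 in wild type. The knockout calls of Ndufs3, Ndufs7, Ndufb2 and Ndufv3 were each lost after cyclic loess and with equal medians. The knockout difference of Ndufs7 ranged from -0.73 to -0.03 over the alternatives. Ndufs1 differed by -0.87 ± 0.12 in the knockout and -0.18 ± 0.12 in wild type. The values of Ndufv2, another core subunit gene, are in the range given above for it.

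A small set of complex I genes showed little difference between stages. Ndufb8 had signals of 5869 and 5837 in knockout spermatids, against 5648 and 5598 in knockout spermatocytes. It had 5335 and 5666 in wild type spermatids, against 5523 and 5438 in wild type spermatocytes, a log2 difference of 0.00 ± 0.11. Ndufa5 and Ndufa6, also accessory subunit genes, differed by -0.01 ± 0.12 and -0.05 ± 0.11 in the knockout and by -0.20 ± 0.12 and 0.12 ± 0.11 in wild type, and none of these was called. Ndufa7 was higher in knockout spermatids (0.33 ± 0.11, adjusted p = 0.0222), with signals of 8199 and 8298 in knockout spermatids, against 6665 and 6494 in knockout spermatocytes. This call was lost when any 1 of the 4 knockout arrays was left out, with an adjusted p of up to 0.101. In wild type the Ndufa7 difference was 0.26 ± 0.11 and was not called.

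In complex IV, 7 of 10 genes were lower and 1 higher in knockout spermatids, and 7 were lower in wild type spermatids. Cox4i1, which encodes a ubiquitous regulatory subunit, differed most. Its signals were 6117 and 6287 in knockout spermatids, against 13479 and 13913 in knockout spermatocytes. They were 7207 and 7124 in wild type spermatids, against 14196 and 13637 in wild type spermatocytes, and the gene was 2.21-fold lower in knockout and 1.94-fold lower in wild type spermatids. Cox7a2 had signals of 13974 and 14498 in knockout spermatids, against 14894 and 15092 in knockout spermatocytes. It had 14886 and 14615 in wild type spermatids, against 15025 and 14938 in wild type spermatocytes, and the arrays of all 4 groups lay within a narrow band. Cox5a was also not called in either genotype (-0.08 ± 0.11 and 0.07 ± 0.11). With equal medians of the arrays, 3 were lower and 3 higher in the knockout, and 5 lower and 2 higher in wild type. Cox5b and Cox6a1 were lower by 1.26-fold and 1.38-fold in knockout spermatids and by 1.31-fold and 1.57-fold in wild type spermatids, a direction that turned in the knockout with equal medians (0.19 and 0.06). The Cox5b call in the knockout was also lost without either spermatocyte array or without replicate 1 of the spermatids, and in wild type it was lost without replicate 1 of the spermatids, after cyclic loess and with equal medians. With the mean of all probe sets it was lost in both genotypes.

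All 4 testis isoforms were lower in spermatids than in spermatocytes of both genotypes as deposited. Cyct had signals of 2050.1 and 2326 in knockout spermatids, against 7397 and 7877 in knockout spermatocytes. It had 2523 and 2457 in wild type spermatids, against 6907 and 7704 in wild type spermatocytes. It was 3.50-fold lower in knockout and 2.93-fold lower in wild type spermatids (adjusted p = 3.48e-07 and 1.27e-06). The somatic cytochrome c gene Cycs, which was not among the 49 genes, had signals of 498 and 584 in knockout spermatids, against 584 and 737 in knockout spermatocytes. It had 744 and 708 in wild type spermatids, against 659 and 859 in wild type spermatocytes, and neither difference was called (-0.28 ± 0.16 and -0.05 ± 0.16). Of 3 other Cycs probe sets, 1 was called lower in both genotypes (-1.80 and -1.44), 1 only in the knockout (-0.66), and a dim 1 was called higher there (0.39), and so the Cycs probe sets differ in sign.

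Cox8c had signals of 9068 and 8680.2 in knockout spermatids, against 15840.0 and 15873 in knockout spermatocytes. It had 10171 and 10952 in wild type spermatids, against 17142 and 16403 in wild type spermatocytes, and spermatids were 1.79-fold lower in the knockout and 1.59-fold lower in wild type. A dim second Cox8c probe set, with mean signals of 121 in knockout spermatids, 82.9 in wild type spermatids, 51.8 in knockout and 61.9 in wild type spermatocytes, was called in the opposite direction (1.23 and 0.43). Its somatic counterpart Cox8a had signals of 394 and 404 in knockout spermatids, against 296 and 336 in knockout spermatocytes. It had 317 and 352 in wild type spermatids, against 372 and 345 in wild type spermatocytes. It was higher in knockout spermatids (0.34 ± 0.12, adjusted p = 0.0303) and not called in wild type (-0.10 ± 0.12). The knockout call was lost without either knockout spermatid array or without replicate 1 of the knockout spermatocytes, with an adjusted p of up to 0.196.

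Cox7b2 had signals of 3990.1 and 4636 in knockout spermatids, against 8161 and 7998 in knockout spermatocytes. It had 5280.0 and 4686 in wild type spermatids, against 7403 and 8451 in wild type spermatocytes, and was 1.88-fold and 1.59-fold lower in spermatids. No value is given here for the somatic form Cox7b. Cox6b2 had signals of 10374 and 10033 in knockout spermatids, against 13823 and 14223 in knockout spermatocytes. It had 12337 and 12882 in wild type spermatids, against 16184 and 15135 in wild type spermatocytes. These are differences of -0.46 ± 0.11 and -0.31 ± 0.11, and the wild type call (adjusted p = 0.0337) was lost when any of the 4 wild type arrays was left out, with differences of -0.36 to -0.26. Both Cox6b2 calls were also lost after cyclic loess, and the wild type call with only the arrays of the groups compared. With equal medians the difference turned to 0.07 in the knockout and fell to -0.02 in wild type, where the call was lost too. Cox6b1, the somatic counterpart, had signals of 777 and 797 in knockout spermatids, against 1049.9 and 1072 in knockout spermatocytes. It had 751 and 786 in wild type spermatids, against 1146 and 1174 in wild type spermatocytes, differences of -0.43 ± 0.11 and -0.59 ± 0.11. Its knockout difference turned to 0.22 after cyclic loess and 0.10 with equal medians. Isoform and counterpart were thus both lower at the later stage as deposited.

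The second question was what loss of Hr6b changed within a cell type. In spermatids, 4 of the 47 members (8.51%) were lower in the knockout and 0 were higher, against 9.63% lower and 4.83% higher among all probe sets. At an unadjusted p under 0.05 there were 9 members. Among members with a mean signal of at least 1000, 3 of 42 (7.14%) were lower, against 19.7% of all probe sets at that signal, and the arrays of the knockout lay below those of wild type for 25 (59.5%), against 60.0%. The share of members called lower was thus near or below that of all probe sets. The median difference of the 47 was -0.10, against 0.02 over all probe sets and -0.18 over those with a signal of at least 1000. It turned to 0.12 after cyclic loess, with 2 members higher and 1 lower, against 5.5% higher and 5.5% lower among all probe sets. With equal medians it turned to 0.10, with 2 higher and 2 lower, against 19.5% higher and 5.04% lower among all probe sets.

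Sdhd was the member that differed most between genotypes in spermatids. Its signals were 469.7 and 515 in knockout spermatids, against 798 and 736 in wild type spermatids, and the arrays did not overlap. The difference was -0.64 ± 0.11 on the log2 scale (adjusted p = 0.00552), or 1.56-fold lower in the knockout, and it was called in all 12 alternatives run. Its second probe set gave -0.37 and was not called. Ndufs1 encodes the largest iron-sulfur subunit of complex I, and had signals of 1664 and 1775 in knockout spermatids, against 2727 and 2459 in wild type spermatids. It was 1.51-fold lower in the knockout (-0.59 ± 0.12, adjusted p = 0.00933), with no overlap of the arrays. The call was lost after cyclic loess and when replicate 1 of either genotype was left out, with adjusted p-values of up to 0.0784.

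Both other calls were lost in most alternatives. Sdhc had 169 and 151 in knockout spermatids, against 217 and 207 in wild type spermatids, a difference of -0.41 ± 0.11 (adjusted p = 0.0391). Its second probe set gave 0.12 and was not called. Uqcrc2 had 1144 and 1289 in knockout spermatids, against 1856 and 1550.4 in wild type spermatids, a difference of -0.48 ± 0.14 (adjusted p = 0.0483). Each lost its call when any 1 of the 4 spermatid arrays was left out. In all, 1 member was called when replicate 1 of either genotype was left out, and 2 when replicate 2 of either was left out.

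No gene of complex IV was called in knockout spermatids. Cox6b2 had 10374 and 10033 in knockout spermatids, against 12337 and 12882 in wild type spermatids, with no overlap, and a difference of -0.31 ± 0.11 (adjusted p = 0.0939). Cyct differed by -0.19 ± 0.12, Cox7b2 by -0.21 ± 0.13 and Cox8c by -0.25 ± 0.11, none of them called, although the dim Cox8c probe set was called higher (0.54). Cox8a had the highest positive difference of the 47, 0.26 ± 0.12 (adjusted p = 0.196). For Sdha, a second probe set was called lower (-0.71, adjusted p = 0.00382 in limma). Its mean signals were 172 in knockout and 283 in wild type spermatids, against 939 in knockout and 1047 in wild type spermatocytes. The most intense Sdha probe set, used for the counts, was not called (-0.22 ± 0.11, adjusted p = 0.24).

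Markers of other cells also differed between the spermatid preparations. Of the 14 Sertoli cell markers, whose summed signals are given above, 6 (42.9%) were called higher in the knockout, against 4.83% of all probe sets. Of the 14, 7 had a signal below 100 in knockout spermatids. The summed signal of 15 late spermatid markers was 248222 to 253796 in knockout and 190665 to 194553 in wild type spermatids. Of these 15, 2 (13.3%) were called higher, against 4.83% of all probe sets. The knockout arrays lay above those of wild type for all 15, against 28.1% of all probe sets. Of the 14 spermatocyte markers, 2 (14.3%) were called lower and 0 higher, against 9.63% and 4.83% of all probe sets. For 10 of them (71.4%) the knockout arrays lay below those of wild type, and for 3 (21.4%) above, against 27.4% and 28.1% of all probe sets. The part of any of these cells in the values above was not tested.

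**Figure D3:**
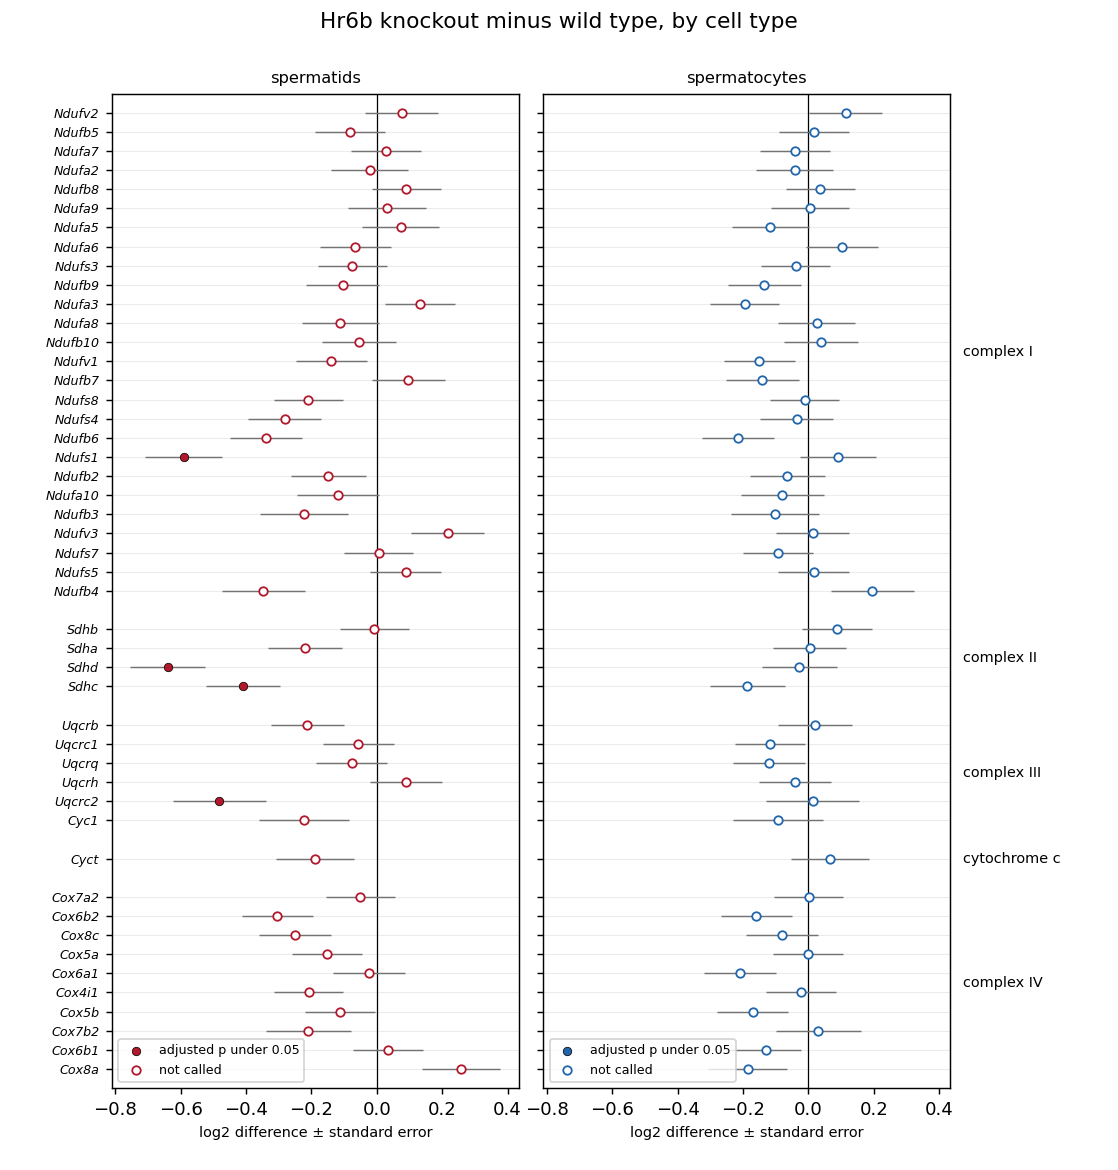
Log2 difference of Hr6b knockout minus wild type ± standard error (x axis) for each member in spermatids (left) and in spermatocytes (right), with 2 arrays in each group. The filled points, with an adjusted p under 0.05, are Ndufs1, Sdhd, Sdhc and Uqcrc2 in spermatids, and no point is filled in spermatocytes.

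In spermatocytes, 0 of the 47 members were called between knockout and wild type by limma, 0 had an unadjusted p under 0.05, and 0 were called in any of the 12 alternatives. Among all probe sets 1.18% were higher and 0.413% lower. The standard errors of the members were 0.11 to 0.14 on the log2 scale and the lowest adjusted p was 0.541, so small differences were not detectable. The median difference was -0.04, against -0.01 over all probe sets. Ndufb6 (-0.21 ± 0.11) and Cox6a1 (-0.21 ± 0.11) differed most among genes with ample signal, and Ndufb4 near background by 0.20 ± 0.13. The largest difference in complex II was that of Sdhc (-0.19 ± 0.11) and in complex III that of Uqcrq (-0.12 ± 0.11). A dim Ndufs4 probe set, with mean signals of 48.7 in knockout and 95.4 in wild type spermatocytes, was called lower (-0.96), while the intense one differed by -0.04 ± 0.11. In the same preparations 12 of 15 late spermatid markers were called higher in the knockout, with summed signals of 41451 to 53283 in knockout and 17402 to 22988 in wild type spermatocytes; their part in the members' values was not tested.

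The difference between the knockout effects in the cell types was called for 1 of the 47 members (2.13%), against 4.60% of all probe sets. That gene was Ndufs1. Its signals were 3131 and 3132 in knockout spermatocytes, against 2782 and 3106 in wild type spermatocytes, a difference of 0.09 ± 0.12, whereas in spermatids the difference was -0.59 ± 0.12. The effect in spermatids minus that in spermatocytes was -0.68 ± 0.17 (adjusted p = 0.0487), and the call was lost in 12 of 15 alternatives, including the loss of any 1 of the 8 arrays (highest adjusted p = 0.202). The stage difference of Ndufs1 was -0.87 ± 0.12 in the knockout (adjusted p = 9.37e-05) and -0.18 ± 0.12 in wild type (adjusted p = 0.217). For Sdhd the difference of effects was -0.61 ± 0.16 (adjusted p = 0.06) and for Ndufb4 -0.54 ± 0.18 (adjusted p = 0.113).

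**Figure D4:**
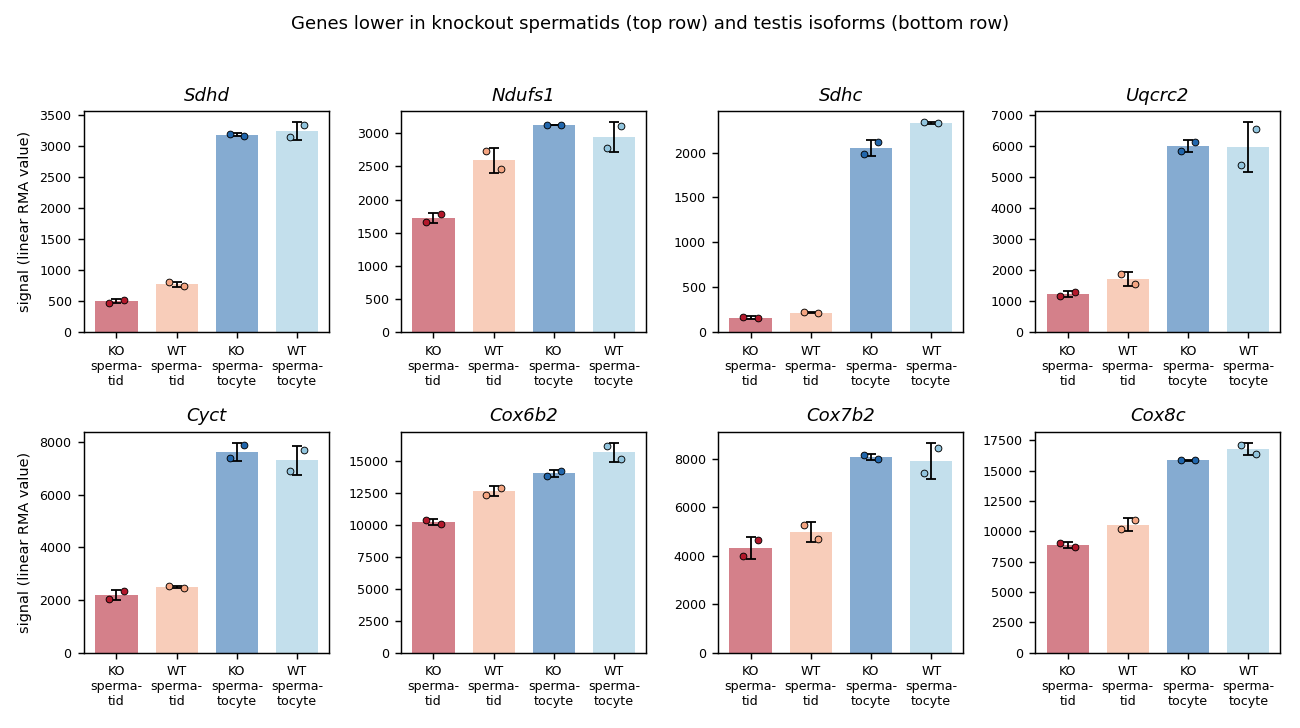
Signal (y axis, linear RMA value from 0) of the 4 genes called lower in knockout spermatids (top row) and of the 4 testis isoforms (bottom row); bars are means, error bars SD and points the 2 arrays of each group. Sdhc averages 159.8 in knockout and 212 in wild type spermatids, against 2051 in knockout and 2332 in wild type spermatocytes, whereas Cox6b2 spans only 10204 to 15659 over the groups.

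Lists of genes that work with the chain, chosen with earlier results of these data known, gave further values. The shares of all probe sets to set beside their counts are 28.7% lower and 34.2% higher between knockout stages, 27.3% lower and 26.0% higher between wild type stages, and 9.63% lower and 4.83% higher between genotypes in spermatids. With equal medians, these are 20.4% lower and 67.5% higher between knockout stages, and 21.9% lower and 55.6% higher between wild type stages. Of 21 other respiratory subunit genes not on the list, 19 were measured, and 4 were higher and 0 lower in knockout spermatids. Ndufb11, an X-linked gene of complex I, had signals of 324 and 387 in knockout spermatids, against 128 and 148 in wild type spermatids. The difference was 1.36 ± 0.14 (adjusted p = 0.000486), and it exceeded that in spermatocytes by 1.45 ± 0.20 (adjusted p = 0.00766). Ndufa13, on an autosome, had 5631 and 6387 in knockout spermatids, against 3755 and 3911 in wild type spermatids, a difference of 0.65 ± 0.11. Between stages, 8 of the 19 were lower and 4 higher in knockout spermatids, and 9 lower and 2 higher in wild type spermatids, with Cox7c (-2.42 ± 0.21 and -2.59 ± 0.21) and Ndufc2 (-2.11 ± 0.13 and -1.96 ± 0.13) among the lowest. The median stage differences were -0.23 and -0.13, and with equal medians of the arrays they were 0.30 and 0.17, with 6 lower and 9 higher in the knockout and 7 lower and 6 higher in wild type. The median of the 19 between genotypes in spermatids was -0.01.

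Of 42 measured assembly factor genes (45 listed), whose products build the complexes, 27 were lower and 6 higher in knockout spermatids than in spermatocytes, and 25 lower and 7 higher in wild type. The medians were -1.03 and -0.79, and with equal medians of the arrays 22 were lower and 13 higher in the knockout, and 23 lower and 10 higher in wild type. Ttc19, needed for complex III, differed by -3.44 ± 0.11 and -3.60 ± 0.11. Nubpl, needed for the iron-sulfur clusters of complex I, was higher by 3.62 ± 0.12 and 3.70 ± 0.12, and Lyrm7, a complex III factor, by 2.98 ± 0.12 and 4.08 ± 0.12. In spermatids, 6 of the 42 (14.3%) were lower in the knockout than in wild type and 0 higher, against 9.63% lower and 4.83% higher among all probe sets, led by Lyrm7 (-0.91 ± 0.12), Coa3 (-0.64 ± 0.13) and Ndufaf3 (-0.51 ± 0.11). With equal medians, 2 were lower and 4 higher, against 5.04% lower and 19.5% higher among all probe sets. The median was -0.06.

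Of 16 ATP synthase genes, 9 were lower and 1 higher in knockout spermatids than in spermatocytes, and 12 lower and 1 higher in wild type. The medians were -0.74 and -0.79. With equal medians of the arrays, 8 were lower and 5 higher in the knockout, and 9 lower and 2 higher in wild type. Atp5g3, which encodes a ring subunit, was the lowest (-2.23 ± 0.11 and -2.30 ± 0.11). None was called between genotypes in spermatids, where 1 had an unadjusted p under 0.05 in limma, and Atp5g2 was lower in knockout spermatocytes (-0.73 ± 0.14, adjusted p = 0.0384).

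Of 18 measured citric acid cycle genes (19 listed), 10 were lower in spermatids than in spermatocytes in either genotype, and 3 were higher in the knockout and 4 in wild type. The list's median differences were -0.44 in the knockout and -0.42 in wild type. Cs, citrate synthase, differed by -2.28 ± 0.14 and -2.31 ± 0.14, whereas Fh1, fumarase, was higher by 2.45 ± 0.14 and 2.41 ± 0.14. In knockout spermatids, Idh3a (-0.62 ± 0.16) and Dlat (-0.51 ± 0.15) were among the 4 genes lower than in wild type, and the X-linked Idh3g was the 1 that was higher (0.66 ± 0.18). After cyclic loess and with equal medians, 2 were higher and 0 lower. The shares of all probe sets were 5.5% higher and 5.5% lower after cyclic loess, and 19.5% higher and 5.04% lower with equal medians. With equal medians between stages, 7 were lower and 8 higher in the knockout, and 7 lower and 5 higher in wild type, and the list's median moved to 0.08 in the knockout, against -0.44 as deposited.

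Of 15 regulators of mitochondrial biogenesis, 7 were lower and 5 higher in knockout spermatids than in spermatocytes, and 8 lower and 7 higher in wild type. In the knockout these were 46.7% lower and 33.3% higher, against 28.7% and 34.2% of all probe sets. In wild type they were 53.3% lower and 46.7% higher, against 27.3% and 26.0% of all probe sets. The medians were -0.36 and -0.40, and with equal medians of the arrays 5 were lower and 6 higher in the knockout, and 5 lower and 7 higher in wild type. Nrf1, named because its product binds the motif searched above and after its values were seen, was higher by 1.25 ± 0.12 in the knockout and 1.33 ± 0.12 for wild type, and Yy1 differed by -3.75 ± 0.15 and -3.40 ± 0.15. The coactivator gene Ppargc1a was lower in knockout than in wild type spermatids (-1.06 ± 0.17, adjusted p = 0.00345), as were Tfb1m (-0.93 ± 0.13) and Gabpa (-0.60 ± 0.13), an ETS factor gene, while Polrmt, the mitochondrial RNA polymerase gene, was higher (0.41 ± 0.11). The median of the 15 was -0.03.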

How the data were processed

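RNA from 8 preparations was hybridised to Affymetrix Mouse Genome 430 2.0 arrays, with 2 arrays in each of 4 groups. The deposited log2 values were made by the authors with RMA, which corrects background, normalises arrays by quantiles and summarises the probes of a probe set. RMA compresses differences of low signals. These values were used as deposited, and 64 control probe sets were left out.

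A model with 4 group means was fitted to all 45037 probe sets with limma 3.58.1 in R 4.3.3 (lmFit and eBayes, 4 residual degrees of freedom), and p-values were adjusted by Benjamini-Hochberg over all of them. The 5 contrasts were taken, and the script was tested on simulated data. Precision is limited by the 2 arrays in a group, and an exact permutation test of 2 arrays against 2 cannot go below p = 0.333. Groups came from the sample labels.

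Alternatives were the arrays of the groups compared alone, a replicate block, cyclic loess, quantile normalization, equal medians of probe sets with a mean signal of 100 or more, a filter at a signal of 100 on at least 4 arrays, an intensity trend with robust variance, the mean of all probe sets of a gene, and leaving out each array. Named were the testis isoforms and their somatic counterparts except Cox7b, and members called or with the 10 largest differences in either direction. The extreme members of each complex and up to 3 examples from other lists were named as well. The members and lists were chosen with earlier results of these data known. Promoter sequences came from RefSeq (GRCm38.p6).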

Additional observations from a re-analysis of the deposited data

Results flagged for a closer look

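The effect of the Hr6b knockout on Ndufs1, which encodes the largest iron-sulfur subunit of complex I, was called as different between the cell types. The log2 difference in spermatids minus that in spermatocytes was -0.68 (limma, adjusted p = 0.0487). Signals were 1664 and 1775 in knockout spermatids, against 2727 and 2459 in wild type spermatids, and 3131 and 3132 in knockout spermatocytes, against 2782 and 3106 in wild type spermatocytes. The knockout arrays lay below the wild type arrays in spermatids and above them in spermatocytes, where the difference was small and not called. The call was lost whenever 1 of the 8 arrays was left out. It was also lost with the replicate block, after cyclic loess, after quantile normalization and with equal medians.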

How the results depend on the processing

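Of the 36 members called between wild type stages, 27 were called in the same direction in every alternative that held them, and of the 41 in the knockout 22 were. Ndufb4, among the 27, was removed by the filter on low signals and so was held in 11 of the 12 alternatives. The stage counts over both directions stayed within 1.5 times, with 33 to 36 calls in wild type and 36 to 39 in the knockout when 1 array was left out. By direction they moved further: in the knockout 39 were lower and 2 higher as deposited, 23 and 5 after cyclic loess, and 23 and 8 with equal medians, and in wild type 35 were lower and 1 higher as deposited, 30 and 4 after cyclic loess, and 28 and 6 with equal medians. In the knockout stage comparison 13 members turned direction in some alternative. After cyclic loess the log2 differences were Cox5b 0.012, Cox6b1 0.22, Ndufb5 0.022, Ndufs4 0.054 and Sdhb 0.017. With equal medians they were Cox5b 0.19, Cox6a1 0.060, Cox6b1 0.10, Cox6b2 0.068, Ndufa2 0.039, Ndufb5 0.16, Ndufs4 0.046, Ndufs5 0.063, Ndufv2 0.20, Sdhb 0.10, Uqcrc1 0.13 and Uqcrq 0.048. With the mean of all probe sets they were Cox8c 0.20 and Uqcrq 0.11. These settings shift or reweight the values by construction, and otherwise the cause was not tested.

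Between genotypes in spermatids 4 members were called. The count was 2 with only the arrays compared, 2 with the replicate block, 10 with an intensity trend and robust variance, and 1 to 2 when 1 array was left out. With the intensity trend, 7365 of all 45037 probe sets were called, against 6514 without it. For the difference of knockout effects, 1 member was called. The count was 0 with the replicate block, 0 after cyclic loess, 0 after quantile normalization, 0 with equal medians, 2 with the filter on low signals, 2 with the intensity trend and 0 when any array was left out. The replicate block gave 36 calls between wild type stages, 41 between knockout stages and 0 between genotypes in spermatocytes. Deviations of arrays with the same replicate number correlated at -0.13 to 0.14. With 2 arrays in each group this cannot show whether arrays of the same number shared a batch, and the labels do not say.

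Over all probe sets, 6514 were called between genotypes in spermatids, 11036 with equal medians, and 2588, 3060 and 3381 without replicate 1 of the knockout, replicate 1 of wild type and replicate 2 of wild type. With 2 arrays in each group, small differences could not be detected, and the near-background values of Ndufb4 carry little information.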
